A study of Mus musculus with 9 samples.

Results

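A set of 10 genes that mark inhibitory interneurons or encode neuropeptides was compared between the cerebral cortices of 3 mouse strains, namely Gad1, Gad2, Pvalb, Calb2, Sst, Cort, Npy, Vip, Cck and Crh. The 10 genes were taken by name from the 54532 genes of the deposited table, and all 10 were measured and tested. Cortex RNA came from 3 male mice each of B6 (C57BL6/J), C3H (C3H/HeJ) and WSB (WSB/EiJ), aged 8 to 12 weeks, and the labels name no treatment or transgene in any group. B6 and C3H are classical inbred laboratory strains and WSB is an inbred strain derived from wild mice. The mice are separate animals of inbred lines, so the spread within a strain is the spread between animals and between dissections. Levels are given in FPKM, the fragments on a gene per kilobase of its length after scaling for library depth, which allows levels of different genes to be set side by side.

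Most inhibitory neurons of the cortex make GABA from glutamate with the glutamate decarboxylases GAD67 (Gad1) and GAD65 (Gad2). They fall into classes that are told apart by a calcium-binding protein or a peptide, such as fast-spiking parvalbumin cells, dendrite-targeting somatostatin cells and Vip cells that mostly contact other interneurons. The peptides are cut from longer precursors in dense core vesicles and act on G protein-coupled receptors. Cck, Npy and Crh are not confined to interneurons, since Cck is also made by many excitatory cortical neurons, and Gad1, Gad2 and several of the peptides are abundant in the striatum and hypothalamus.

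Sst encodes somatostatin and Cort encodes cortistatin, a related peptide that binds the same receptors. The last coding bases before the stop codon of both genes are shown because they encode the shared part of the peptides, and because Cort differed between strains whereas Sst was not called. Capitals mark bases that are identical in the alignment of the genes (GENCODE M21 transcripts, GRCm38), 31 of 39 aligned bases (79.5%).
Sst, chr16:23889732-23889773, minus strand: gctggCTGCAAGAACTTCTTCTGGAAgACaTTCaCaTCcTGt
Cort, chr4:149125267-149125308, minus strand: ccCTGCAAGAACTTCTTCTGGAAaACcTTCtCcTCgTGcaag
Over the whole transcripts the longest run of identical bases was 21. Sst lies on chromosome 16 (23889573 to 23890958, minus strand, 2 exons) and Cort on chromosome 4 (149125034 to 149126763, minus strand, 2 exons), and no annotated gene overlaps either.

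Somatostatin and Vip are textbook targets of the cAMP response element, the palindrome TGACGTCA to which the factor CREB binds. Promoter windows of 250 bases before the start site (RefSeq, GRCm38.p6) were matched for 8 of the 10 genes, all but Crh and Calb2. Capitals mark the full palindrome or its shorter form, TGACG on either strand, which the palindrome itself contains. The windows of Cort and Vip are shown because these peptide genes had the smallest adjusted p in WSB against B6, and the Sst site because it is the only full palindrome.
Sst, chr16:23890874-23890903, minus strand: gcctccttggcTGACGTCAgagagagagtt
Cort, chr4:149126764-149127013, minus strand: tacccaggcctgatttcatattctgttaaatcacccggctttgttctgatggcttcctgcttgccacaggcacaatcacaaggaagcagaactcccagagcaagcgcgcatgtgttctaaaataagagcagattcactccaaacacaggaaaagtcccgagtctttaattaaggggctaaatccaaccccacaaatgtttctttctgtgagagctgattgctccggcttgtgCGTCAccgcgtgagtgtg
Vip, chr10:5638968-5639217, plus strand: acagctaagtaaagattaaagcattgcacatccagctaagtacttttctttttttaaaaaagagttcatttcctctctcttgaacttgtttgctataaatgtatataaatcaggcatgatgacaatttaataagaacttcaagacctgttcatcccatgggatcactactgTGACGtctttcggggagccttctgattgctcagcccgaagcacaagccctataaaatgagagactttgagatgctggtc
The full palindrome was found in 1 of the 8 genes, beginning 48 bases before the RefSeq start of Sst. It was found in 1.55% of 32851 promoters of this length. The shorter form was found in 5 of the 8 genes and in 17.77% of all promoters. It began 79 bases before the RefSeq start of Vip, 47 before Cck, 18 before Cort and 33 before Gad2. For Sst and Gad2 the RefSeq start lies inside the gene bounds given here, so their sites fall within those bounds. These matches describe letters in the reference sequence of B6 and are not measured binding sites.

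Per length of gene, the most abundant of the 10 was Sst, with a mean of 445 FPKM over the 9 mice, followed by Cck (359), Npy (124), Pvalb (71.5), Gad1 (44.9), Gad2 (25.1), Calb2 (24.7), Vip (16.1), Cort (10.02) and Crh (5.44). Sst exceeded Cck in 9 of 9 mice, although their ranges over all mice overlapped. The only neighbours in this order whose ranges did not overlap were Cck and Npy, Npy and Pvalb, and Gad1 and Gad2, whereas Gad2 exceeded Calb2 in 4 of 9 mice. Crh and Cort rested on the fewest reads, 98 to 201 for Crh and 61 to 288 for Cort per mouse, while Cck had 6619 to 11354. Between 16317439 and 21562429 reads per mouse lay on genes (16317439 to 17784118 in WSB). Within strains the genes spread very differently: the SD on the log2 scale was 0.71 for Calb2, at percentile 97.2 of 13010 genes, 0.35 for Cort (90.6) and 0.27 for Gad2 (83.4), against 0.14 for both Gad1 and Sst and a median of 0.15 over those genes.

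**Figure D1:**
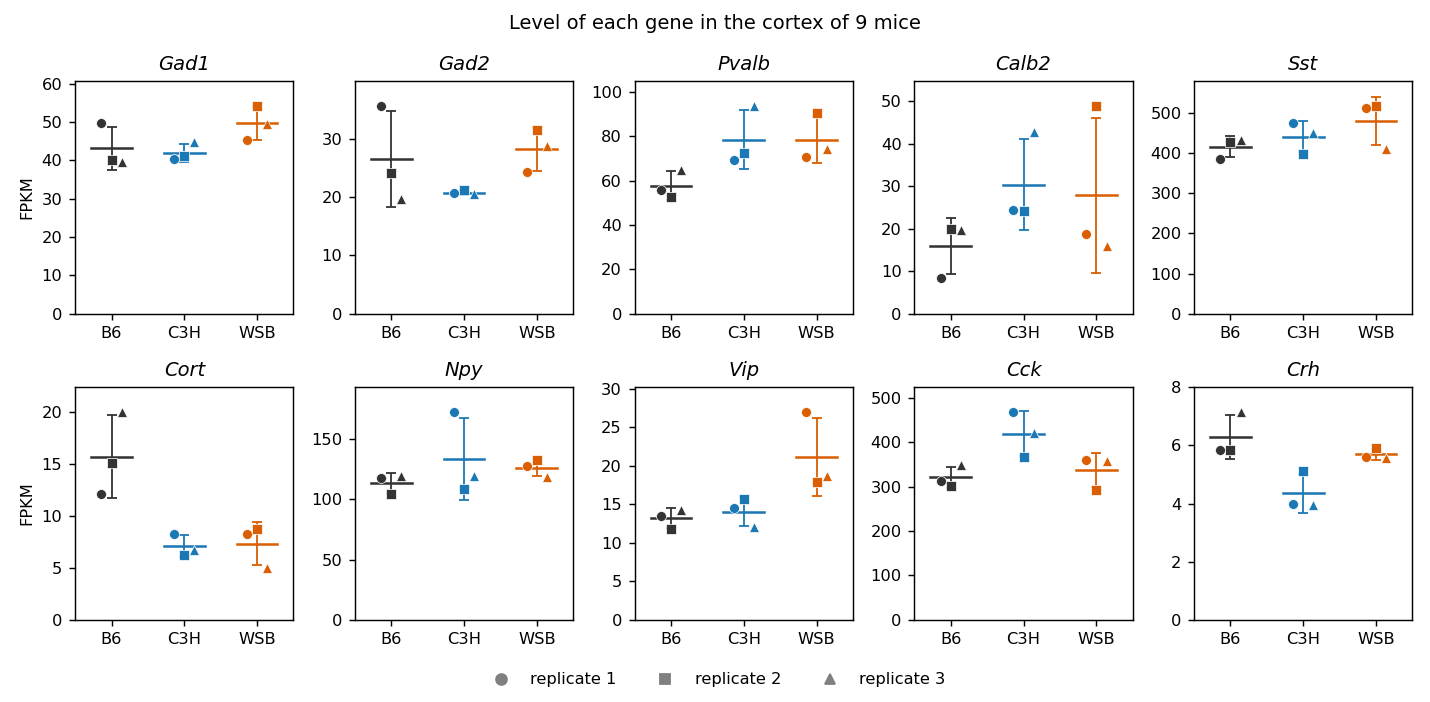
FPKM (vertical axes, from 0) of the 10 genes in each of 3 B6, 3 C3H and 3 WSB mice (points, shape gives the replicate), with the strain mean (line) and SD (bar). Cort sits between 12.0 and 19.96 in B6 and between 4.93 and 8.70 in the other 6 mice, Calb2 spreads from 8.33 to 48.8, and Sst lies between 385 and 517.

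The strains were compared 2 at a time by limma on log2(FPKM + 0.1), with Benjamini-Hochberg adjustment over all genes tested and a threshold of 0.05. WSB against B6 called 1 of the 10 genes, beside 5.90% of 20746 genes tested (3.09% called lower), and 3 of the 10 had an unadjusted p under 0.05, beside 20.4%. C3H against B6 called 1, beside 4.64% of 20602 genes (2.26% called lower), and 5 had an unadjusted p under 0.05, beside 24.1%. Both calls were Cort, lower than in B6, and both comparisons use the same 3 B6 mice. WSB against C3H called none by limma, beside 5.74% of 20607 genes, while 5 of the 10 had an unadjusted p under 0.05 (23.8% of all genes) and 2 were called with voom weights on reads (8.53% of all genes). A single call among 10 genes does not stand apart from these shares.

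In WSB against B6 the 3 mice of each strain did not overlap for 3 of the 10 genes, Pvalb and Vip (higher in WSB) and Cort (lower), beside 26.0% of all genes. In C3H against B6 this held for 5 genes, Cck, Pvalb and Calb2 (higher in C3H) and Cort and Crh (lower), beside 28.9%. In WSB against C3H it held for 5, Gad1, Gad2, Vip and Crh (higher in WSB) and Cck (lower), beside 28.6%. The median log2 fold change of the 10 genes was 0.18, 0.09 and 0.07 in these comparisons, beside 0.0025, -0.0038 and 0.0089 over all genes tested. In bulk tissue, fewer cells of a type and less RNA per cell cannot be told apart, and this applies to every difference given here. The paper states that the mouse reference genome comes from B6. Whether C3H and WSB reads were counted as fully as B6 reads was not tested.

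**Figure D2:**
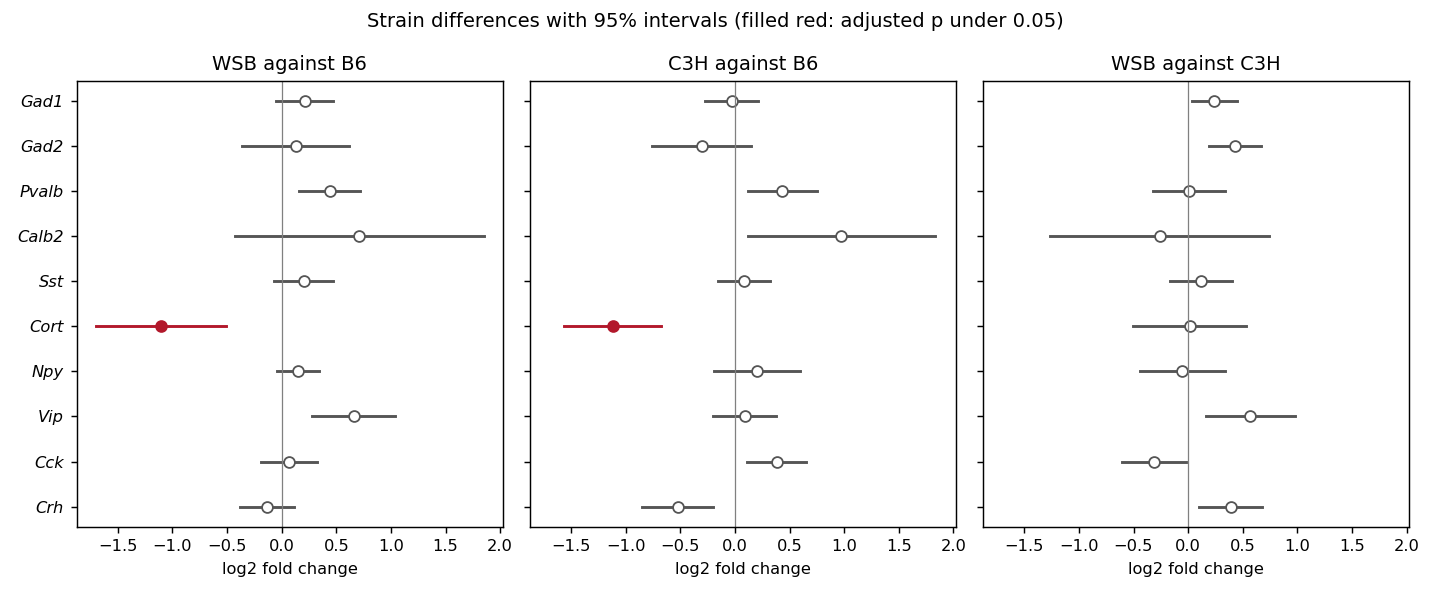
Log2 fold change (horizontal axis) of the 10 genes in each comparison, with unadjusted 95% intervals from limma. Filled red points are past the adjusted threshold of 0.05. Cort stands at -1.11 in WSB and -1.12 in C3H relative to B6 and at 0.01 between WSB and C3H, and Calb2 has the widest intervals.

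Cort was lower in both C3H and WSB than in B6, by a little over 2-fold, while Sst, its close relative, was not called in any comparison. In the 3 B6 mice Cort had 12.0, 15.1 and 19.96 FPKM. In C3H it had 8.25, 6.25 and 6.70 FPKM, and in WSB 8.26, 8.70 and 4.93 FPKM. Every B6 mouse was above every C3H and WSB mouse, and C3H and WSB overlapped. In B6 the mean was 15.7 ± 3.996 (SD, n = 3), compared with 7.07 ± 1.05 (SD, n = 3) for C3H and 7.30 ± 2.06 (SD, n = 3) for WSB. For C3H against B6 the log2 fold change was -1.12 (standard error, SE, 0.19, adjusted p = 0.0182, limma), a 2.17-fold lower level. For WSB against B6 it was -1.11 (SE 0.25, adjusted p = 0.0498, limma), a 2.15-fold lower level that stands at the threshold. WSB and C3H differed by 0.01 (95% interval -0.51 to 0.53), so a difference within that interval, in either direction, is not excluded by these mice.

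The 2 calls of Cort were not equally stable. The one in C3H was kept in 4 of the 6 fits that left out 1 mouse and was lost without B6 replicate 2 or C3H replicate 3, at adjusted p from 0.0147 to 0.0761 (limma) over the 6. The one in WSB was lost in each of the 6 fits (adjusted p 0.0596 to 0.1401, limma), whichever mouse was left out, with log2 fold changes from -1.28 to -0.85. It was also lost with a pseudocount of 1 (adjusted p = 0.0542) or 0.01 (0.0543), with no filter on low values (0.0776) and after rescaling to equal total reads (0.0506).

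Sst itself had 385, 428 and 434 FPKM in B6, 474, 398 and 450 in C3H, and 512, 517 and 410 in WSB. These ranges overlapped in all comparisons. The log2 fold changes were 0.20 for WSB against B6 (95% interval -0.07 to 0.47, adjusted p = 0.387, limma) and 0.08 for C3H against B6 (-0.15 to 0.32, adjusted p = 0.648, limma). Within each mouse, Cort amounted to 3.13, 3.52 and 4.603 FPKM per 100 FPKM of Sst in B6, to 1.74, 1.57 and 1.49 in C3H, and to 1.61, 1.68 and 1.20 in WSB. The B6 ratios did not overlap with those of either other strain. The exact two-sided permutation test gave p = 0.1 for both, the smallest it allows with 3 mice against 3, and an adjusted p of 0.35 over the 21 tests of ratios made. Relative to 100 FPKM of Vip, the B6 level of Cort was 119 ± 26.8 (SD, n = 3), compared with 50.9 ± 9.52 (SD, n = 3) for C3H and 35.3 ± 11.8 (SD, n = 3) for WSB, again without overlap between B6 and the others. Relative to 100 FPKM of Crh, the B6 level was 248 ± 37.5 (SD, n = 3), compared with 166 ± 42.5 (SD, n = 3) for C3H, which overlapped with B6, and 128 ± 33.8 (SD, n = 3) for WSB, which did not.

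Cort has a near neighbour on its own strand, which was looked at after its values were seen. Cenps, which encodes a centromere protein, ends 357 bases before the start of Cort (chromosome 4, 149127121 to 149137629, minus strand). Cenps had 1.64, 2.31 and 1.70 FPKM in B6, 2.39, 2.19 and 2.29 in C3H, and 7.18, 6.53 and 5.10 in WSB. It was higher in WSB than in B6 (log2 fold change 1.69, standard error 0.18, adjusted p = 0.00199, limma), while C3H against B6 gave 0.29 (adjusted p = 0.304). Cenps was also higher in WSB than in C3H (1.401, adjusted p = 0.00196, limma), a comparison in which Cort was not called. Dffa, on the other side of Cort at a distance of 4386 bases, was not called in any of the 3 comparisons (adjusted p 0.145 to 0.746, limma).

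**Figure D3:**
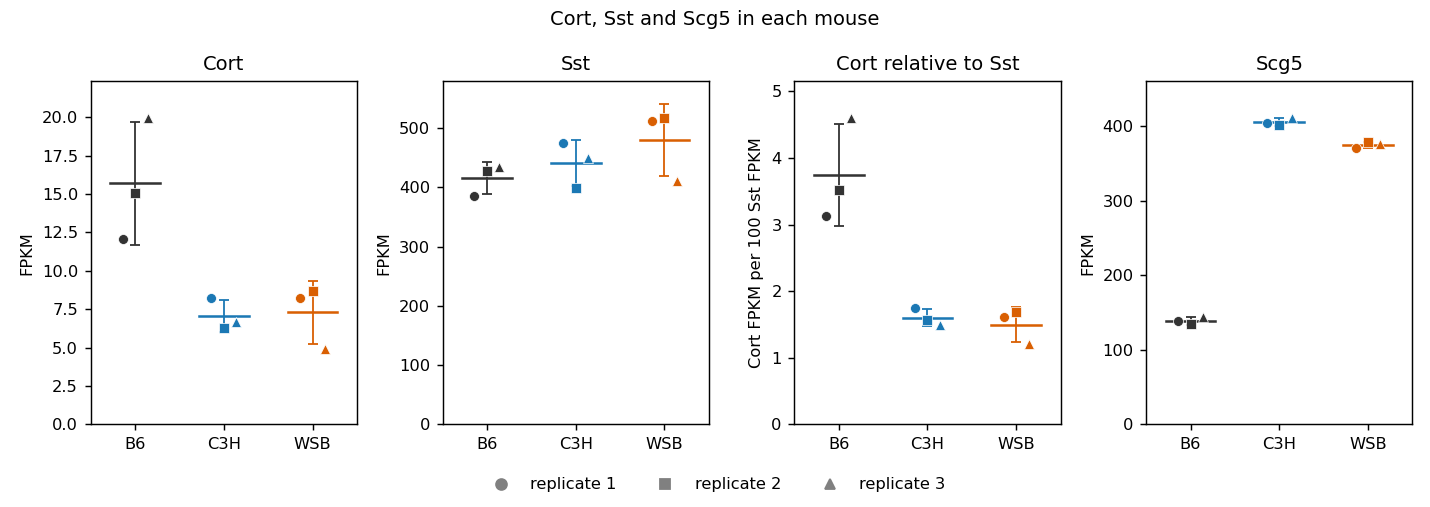
FPKM of Cort, Sst and Scg5, and the Cort level per 100 FPKM of Sst (vertical axes, from 0), in each of 9 mice (points) with strain means (lines) and SD (bars). The Cort ratio is 3.13 to 4.603 in B6 and 1.20 to 1.74 elsewhere, and Scg5 is 134 to 145 in B6 and 371 to 411 elsewhere.

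The enzymes of GABA synthesis were not called in any comparison. Gad1 (chromosome 2, 70553072 to 70602014, plus strand, 17 exons) had 49.6, 40.0 and 39.6 FPKM in B6, 40.2, 41.1 and 44.7 in C3H, and 45.3, 54.2 and 49.6 in WSB. Gad2 (chromosome 2, 22622205 to 22693874, plus strand, 16 exons) had 35.6, 24.1 and 19.7 FPKM in B6, 20.7, 21.2 and 20.5 in C3H, and 24.3, 31.6 and 28.8 in WSB. Both genes lay higher in all WSB mice than in all C3H mice, and the B6 mice reached across both ranges for Gad2. WSB against C3H gave a log2 fold change of 0.43 for Gad2 (SE 0.10, adjusted p = 0.0561, limma) and of 0.24 for Gad1 (SE 0.09, adjusted p = 0.158, limma). The Gad2 difference came under the threshold in 4 of the alternatives: at a filter of 1 FPKM (adjusted p = 0.0460), after rescaling to total reads (0.0473), with voom weights (0.0242) and without WSB replicate 1 (0.0309). It did not in the other alternatives, removal of GC trends included. Of 6 fits without 1 mouse, 1 called it (adjusted p 0.0309 to 0.181, limma). Over 12998 genes, the log2 fold changes of WSB against C3H followed the GC content of the transcript (Spearman -0.397, a description across genes). With GC trends removed, Gad2 stood at 0.13 in WSB and -0.17 in C3H relative to B6, compared with 0.13 and -0.30 before. The part of GC content here was not tested. Per 100 FPKM of Gad1, Gad2 stood at 71.8, 60.2 and 49.6 in B6, 51.3, 51.6 and 45.8 in C3H, and 53.6, 58.3 and 58.0 in WSB. Gad1 overlaps the antisense gene Gad1os, and since the strand setting of the counting is not given in the sources used here, reads of the pair may not have been told apart.

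Among the calcium-binding proteins, Pvalb (chromosome 15, 78191114 to 78206400, minus strand, 4 exons) was lower in each B6 mouse than in any other mouse, without passing the adjusted threshold. It had 55.6, 52.4 and 64.9 FPKM in B6, 69.2, 72.3 and 93.6 in C3H, and 70.5, 90.4 and 74.4 in WSB. The log2 fold changes relative to B6 were 0.44 in WSB (SE 0.12, adjusted p = 0.0846, limma) and 0.43 in C3H (SE 0.13, adjusted p = 0.115, limma). The difference of WSB came under the threshold with voom weights (adjusted p = 0.0371). WSB and C3H differed by 0.01 (95% interval -0.33 to 0.34).

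Calb2 encodes calretinin and lies on chromosome 8 (110137502 to 110168210, minus strand, 11 exons). It had 8.33, 19.9 and 19.7 FPKM in B6, 24.3, 24.1 and 42.7 in C3H, and 18.7, 48.8 and 15.8 in WSB. C3H lay above B6 in all mice, whereas WSB reached from within the B6 range to above all other mice. The log2 fold changes were 0.97 for C3H against B6 (SE 0.37, adjusted p = 0.168, limma) and 0.71 for WSB against B6 (SE 0.48, adjusted p = 0.482, limma). A single mouse of each strain stood apart in this gene, B6 replicate 1 low, C3H replicate 3 and WSB replicate 2 high.

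These same 3 mice had the highest sums of striatal, thalamic or hypothalamic markers, 1 region each, although such sums varied in other mice too. The summed FPKM of 9 striatal markers was 798, 434 and 195 in B6, 343, 177 and 473 in C3H, and 142, 289 and 360 in WSB, with B6 replicate 1 highest. That of 6 thalamic markers was 10.8, 12.4 and 14.6 in B6, 11.9, 29.0 and 44.8 in C3H, and 13.9, 32.8 and 17.4 in WSB, with C3H replicate 3 highest. That of 8 hypothalamic markers was 2.77 in WSB replicate 1, 275 in WSB replicate 2 and 40.2 in WSB replicate 3, and 3.01 to 5.996 in the 6 other mice. In WSB replicate 2 the vasopressin gene Avp reached 138 FPKM, and the orexin gene Hcrt 32.1 FPKM beside at most 0.219 in any other mouse.

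Gad2 in B6 followed the order of the striatal sum, 35.6 at a sum of 798, 24.1 at 434 and 19.7 at 195. In C3H, Gad2 stayed within 20.5 to 21.2 while that sum moved from 177 to 473. In WSB, Gad2 was 24.3, 31.6 and 28.8 at sums of 142, 289 and 360, not in the order of the sum. Cort had the opposite order in B6, with the lowest Cort at the highest striatal sum. That order was not kept in C3H, with Cort at 8.25, 6.25 and 6.70 at sums of 343, 177 and 473. Nor was it kept in WSB, with Cort at 8.26, 8.70 and 4.93 at 142, 289 and 360. The part of these regions in the levels of Gad2, Calb2 and Cort was not tested. An alternative chosen after seeing the data left out B6 replicate 1, C3H replicate 3 and WSB replicate 2. With 2 mice per strain, Calb2 then stood at -0.20 in WSB and 0.29 in C3H relative to B6. Since these mice hold the lowest B6 level and the highest C3H and WSB levels of Calb2, their removal lowers both values in any case. Gad2 stood at 0.28 and -0.06 in the same fits. Cort stood at -1.43 in WSB (adjusted p = 0.0888, limma) and -1.26 in C3H (adjusted p = 0.0623, limma), and none of the 10 genes was called, beside 495, 304 and 309 of all genes.

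**Figure D4:**
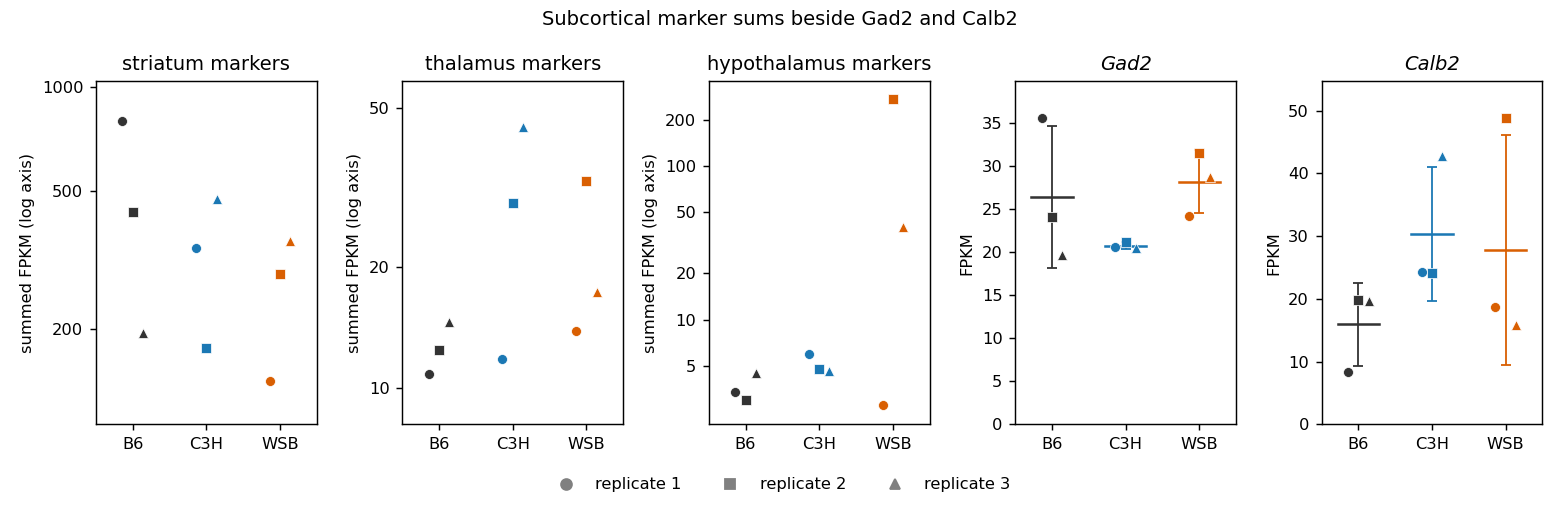
Summed FPKM of striatal, thalamic and hypothalamic markers (log axes) and FPKM of Gad2 and Calb2 (axes from 0, with strain mean and SD) in each of 9 mice, point shape giving the replicate. B6 replicate 1 has the highest striatal sum (798), C3H replicate 3 the highest thalamic sum (44.8) and WSB replicate 2 the highest hypothalamic sum (275), and the last 2 are also highest in Calb2 (42.7 and 48.8).

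The excitatory cortical markers were present in every mouse, with a sum of 631 to 932 FPKM over 11 genes, and none of the marker lists had a gene at 0 in all mice. Oligodendrocyte sums were 427 to 617 in WSB and 734 to 989 in the other strains, with Mobp called lower than in B6 and Mog lower than in C3H. Of these 6 markers, 6 had an unadjusted p under 0.05 against B6 and 4 against C3H, voom weights called 5 and 3, and the median log2 fold changes were -0.67 and -0.62. Microglial sums were 102 to 104 in WSB and 118 to 150 elsewhere, with Csf1r (lower than B6), C1qa (lower than C3H) and Aif1 (C3H higher than B6) called. Aif1 went against the sum in WSB against B6, since every WSB mouse was higher (log2 fold change 0.34, adjusted p = 0.139, limma). The median of the microglial list was -0.23 there. Blood sums were 632 to 1010 in C3H and 217 to 329 in the others, with Hbb-bs, Hba-a1 and Alas2 higher in C3H than in B6 and than in WSB, and Hba-a1 higher and Hbb-bt lower in WSB than in B6. Astrocyte sums were 186 to 236 over all mice with Gfap lower in WSB than in C3H, and vascular sums were 29.6 to 43.1 with Slco1a4 lower in WSB than in either strain and Rgs5 higher than in C3H. Among excitatory markers WSB against C3H called Cux2 and Rorb, 1 in each direction. Hippocampal sums were 9.998 to 47.0, choroid plexus sums 66.8, 764 and 64.7 in B6, 92.4, 447 and 657 in C3H and 468 to 604 in WSB, and olfactory bulb sums 5.22 to 17.4 FPKM, and no gene of these lists or of the striatal, thalamic and hypothalamic lists was called by limma. At an unadjusted p under 0.05 these 6 lists held 0 to 3 genes each per comparison, and voom weights called 0 or 1. The excitatory, astrocyte, microglial, vascular and blood lists held 0 to 5, and voom weights called 0 to 3. The part of these cells in the levels of the 10 genes was not tested.

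Vip (chromosome 10, 5639218 to 5647617, plus strand, 7 exons), which encodes a peptide that acts through Vipr1 and Vipr2, had its highest levels in the 3 WSB mice. It had 13.5, 11.8 and 14.2 FPKM in B6, 14.5, 15.7 and 12.0 in C3H, and 27.0, 17.9 and 18.7 in WSB. No WSB mouse overlapped with the other strains, which overlapped with each other. The log2 fold change was 0.66 against B6 (SE 0.16, adjusted p = 0.0643, limma) and 0.57 against C3H (SE 0.17, adjusted p = 0.108, limma), and neither passed. Against B6 it came under the threshold with all 9 mice in one fit (adjusted p = 0.0412), with voom weights (0.0169) and after removal of GC trends within libraries (0.0317). It did not in 6 of 6 fits that left out 1 mouse (adjusted p 0.0709 to 0.194, limma). Nor did it with other pseudocounts, filters and scalings (adjusted p 0.0511 to 0.0950, limma). Against C3H it passed with voom weights (adjusted p = 0.0452) and stood at 0.29 (adjusted p = 0.229) with GC trends removed. The 3 WSB mice did not agree closely, since replicate 1 alone was at 27.0.

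Cck (chromosome 9, 121489824 to 121495694, minus strand, 4 exons) had 313, 301 and 347 FPKM in B6, 467, 367 and 421 in C3H, and 361, 293 and 358 in WSB. All C3H mice lay above all B6 and WSB mice. C3H against B6 gave a log2 fold change of 0.38 (SE 0.11, adjusted p = 0.108, limma), and WSB against C3H gave -0.31 (adjusted p = 0.193, limma). The first came under the threshold with voom weights (adjusted p = 0.0444) and without C3H replicate 2 (0.0389). Over 12940 genes, the log2 fold changes of C3H against B6 followed the GC content of the transcript (Spearman 0.485, a description across genes), and with GC trends removed the values of Cck were 0.20 (adjusted p = 0.188) against B6 and -0.21 for WSB against C3H. Npy (chromosome 6, 49822710 to 49829507, plus strand, 4 exons) had 117, 104 and 119 FPKM in B6, 172, 108 and 119 in C3H, and 127, 133 and 118 in WSB. Its ranges overlapped throughout, with 95% intervals of -0.04 to 0.34 for WSB against B6 and -0.19 to 0.60 for C3H against B6.

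Crh encodes corticotropin-releasing hormone, the hypothalamic trigger of the stress axis, which is also made by cortical interneurons (chromosome 3, 19693401 to 19695396, minus strand, 2 exons). It had 5.84, 5.85 and 7.15 FPKM in B6, 3.99, 5.12 and 3.94 in C3H, and 5.60, 5.91 and 5.56 in WSB. The C3H mice were the lowest, below every B6 and WSB mouse. The log2 fold change was -0.52 for C3H against B6 (SE 0.14, adjusted p = 0.0831, limma) and 0.39 for WSB against C3H (SE 0.12, adjusted p = 0.118, limma). Leaving out C3H replicate 2 brought both under the threshold, at adjusted p = 0.0289 and 0.0273 (limma), and C3H against B6 also passed with all 9 mice in one fit (adjusted p = 0.0380). WSB replicate 2, with its high hypothalamic sum, did not stand apart in Crh.

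Of the receptors of these peptides, 16 genes were listed and 13 or 14 tested, and 0 were called in WSB against B6, C3H against B6 or WSB against C3H by limma. Unadjusted p values under 0.05 were reached by 4, 3 and 4 of them, and voom weights called 1, 0 and 2. For 9 genes of GABA transport, breakdown and chloride balance the calls were also 0 in each comparison, with 1, 2 and 2 at an unadjusted p under 0.05 and 0, 1 and 0 with voom weights. The 13 tested genes of other cortical neuropeptides gave 0 calls in each comparison, with 3, 0 and 2 at an unadjusted p under 0.05 and 1, 0 and 1 with voom weights. Over the 8 related lists, the median log2 fold change lay between -0.10 and 0.19 for WSB against B6, between -0.23 and 0.08 for C3H against B6 and between -0.17 and 0.21 for WSB against C3H.

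The clearest difference among these lists was in peptide processing, where Scg5 was higher in both C3H and WSB than in B6. Scg5 encodes the protein 7B2, a chaperone of the prohormone convertase that Pcsk2 encodes. It had 138, 134 and 145 FPKM in B6, 404, 401 and 411 in C3H, and 371, 378 and 376 in WSB. The log2 fold change was 1.43 in WSB (SE 0.07, adjusted p = 3.15e-05, limma) and 1.54 in C3H (SE 0.07, adjusted p = 2.94e-05, limma), or 2.70-fold and 2.92-fold. The gaps between strains were far wider than the spread within any, and both calls held in 6 of 6 fits that left out 1 mouse. Of the 15 genes of that list, none but Scg5 was called relative to B6 (2 and 6 had an unadjusted p under 0.05 in WSB and C3H, and voom weights called 1 and 2), and Cadps2, a factor of dense core vesicle release, was higher in WSB than in C3H (log2 fold change 0.44, adjusted p = 0.0480, limma).

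Genes that mark the interneuron classes gave 0 to 2 calls per list and comparison. The most were 2 of 10 parvalbumin genes in C3H against B6, beside 4.64% of all genes tested. Of these 10, 4 had an unadjusted p under 0.05, beside 24.1%. Among 10 genes of parvalbumin cells, Lgi2 (log2 fold change -0.43, adjusted p = 0.0244, limma) and Cox6a2, a muscle-type subunit of cytochrome c oxidase (-0.63, adjusted p = 0.0299, limma), fell in C3H relative to B6. Pvalb had higher values in both C3H and WSB than in B6. When 1 mouse was left out, the calls of Lgi2 and Cox6a2 were kept only without B6 replicate 1 or without C3H replicate 2. With voom weights Lgi2 was kept (adjusted p = 0.0142) and Cox6a2 was not (0.0543). Cox6a2 had 9.61, 11.8 and 12.6 FPKM in B6, 6.64, 7.74 and 7.43 in C3H, and 8.75, 5.86 and 6.44 in WSB. In WSB against B6 and in WSB against C3H, 0 of the 10 were called by limma, 2 and 2 had an unadjusted p under 0.05 and voom weights called 0. Cox6a2 was nevertheless lower in every WSB mouse than in any B6 mouse (log2 fold change -0.69, adjusted p = 0.0592, limma). That difference came under the threshold at a filter of 1 FPKM (adjusted p = 0.0461), with all 9 mice in one fit (0.0270), with GC trends removed (0.0458) and without WSB replicate 1 (0.0259). It did not in the other alternatives.

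Among the genes of somatostatin cells, Crhbp, whose product binds and holds the Crh peptide, was higher in WSB than in B6. It had 10.4, 11.004 and 13.7 FPKM in B6, 15.7, 15.6 and 12.3 in C3H, and 18.9, 17.8 and 18.2 in WSB. All WSB mice were above all others, and the log2 fold change against B6 was 0.65 (SE 0.11, adjusted p = 0.0160, limma). The call was kept in 3 of 6 fits that left out 1 mouse and was lost without B6 replicate 2, WSB replicate 1 or WSB replicate 3. It was 1 of 9 genes tested there, and the other 2 comparisons gave 0 calls of 10 by limma, with 1 and 3 genes at an unadjusted p under 0.05 and 1 and 2 called with voom weights.

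Among 12 genes of Vip, Cck and Lamp5 cells, Sncg, the gamma-synuclein gene, was higher in C3H than in B6 (log2 fold change 0.90, adjusted p = 0.0171, limma), on 35 to 48 reads per B6 mouse and 69 to 96 per C3H mouse. The call of Sncg in C3H was lost without B6 replicate 1, B6 replicate 3 or C3H replicate 1. Every WSB mouse was also above every B6 mouse in Sncg, without a call (log2 fold change 0.76, adjusted p = 0.168, limma). Cnr1, the cannabinoid receptor gene of Cck cells, was higher in WSB than in C3H (0.63, adjusted p = 0.0460, limma). WSB against B6 called 0 of the 12 by limma, with 3 at an unadjusted p under 0.05 and 0 with voom weights. Of 18 transcription factors of interneuron development, Dlx1 was called in WSB against C3H (0.48, adjusted p = 0.0309, limma) and none in the comparisons with B6, where 2 and 3 had an unadjusted p under 0.05 and voom weights called 0.

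**Figure D5:**
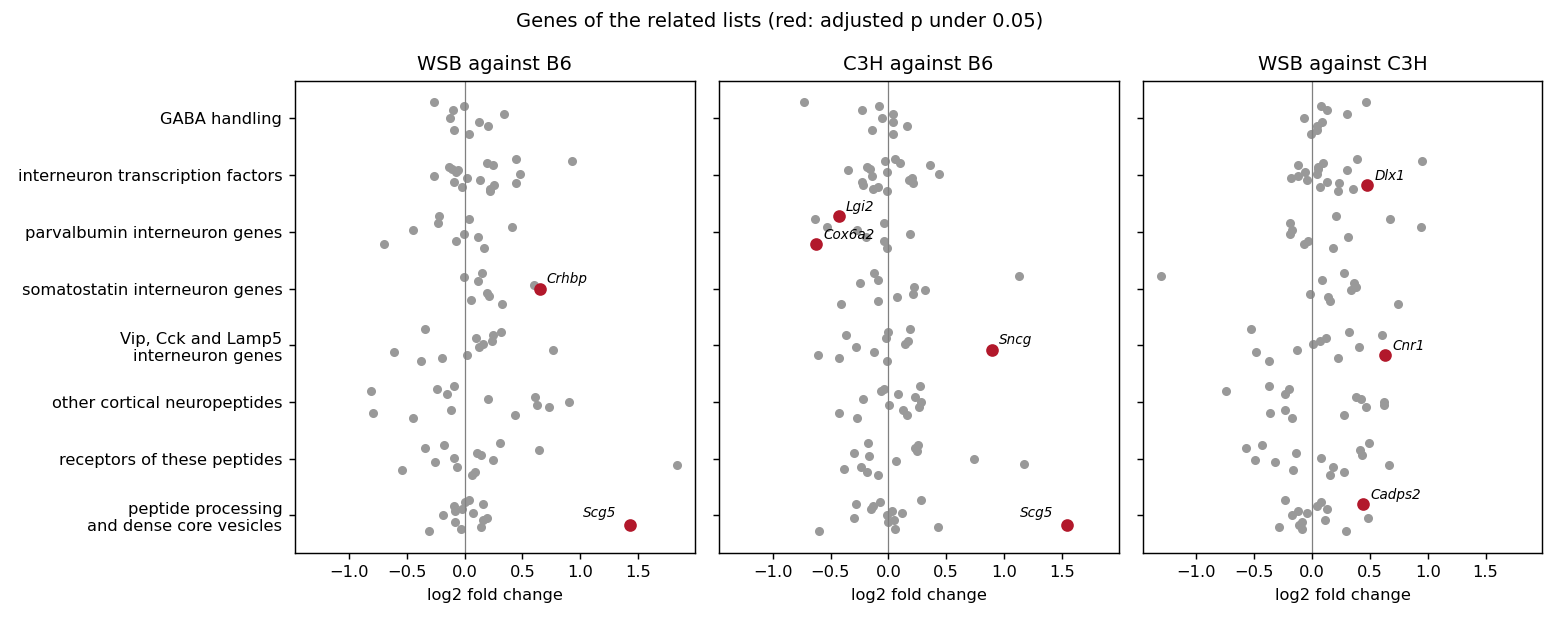
Log2 fold change (horizontal axis) of each tested gene of the 8 related lists (rows) in the 3 comparisons, with genes past the adjusted threshold of 0.05 in red and named. Scg5 is called at 1.43 and 1.54 relative to B6, and most of the genes lie between -1 and 1 without a call.

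Each of the 10 genes was also set against 13009 genes averaging 1 FPKM or more, by the root mean square difference between profiles over the 9 mice, each centred on its own mean on the log2 scale. The profiles nearest to Cort were those of Slc5a5 (0.24) and D2hgdh (0.24), and the nearest of the other 9 genes was Crh, at rank 481. Gad2 was nearest to Rgs2 (0.10) and Akap9 (0.12), with Gad1 at rank 58, the closest rank of any of the 10 genes to another. Seen from Gad1, Gad2 stood at rank 1921. Pvalb was nearest to Nefh (0.08), a neurofilament gene, and Scly (0.08), while Calb2 was nearest to Igsf1 (0.23) and Rasd1 (0.31), with Pvalb at rank 120. The nearest profiles were Mipep (0.04) and Pxn (0.04) for Sst, Tfpi (0.11) and 2900076A07Rik (0.13) for Vip, and Rab33a (0.07) and Kank3 (0.10) for Npy. For Cck they were 9330102E08Rik (0.06) and Extl1 (0.07), for Crh Zfp84 (0.06) and Tmem169 (0.07), and for Gad1 Prpsap2 (0.07) and Cd302 (0.07). These values describe 9 mice that share strain and library, and carry no test.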

How the data were processed

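RNA of brain cortex from 9 mice, 3 per strain, was sequenced in paired ends. Per the labels and the paper's methods, the authors trimmed adapters with Cutadapt, aligned with STAR, counted reads on genes with HTSeq and tested with DESeq2. Versions and the genome build are not given in the sources used here, and the coordinates of the 10 genes equal those of GENCODE M21 (GRCm38). The deposited values are FPKM per gene and mouse, and 0 value columns were left unused. Multiplied by gene length they were whole multiples of a step per library (100% of values, tolerance 0.01 reads), which gave reads per gene. Reads served for depth and voom weights.

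Pairs of strains were compared with limma 3.58.1 (R 4.3.3; lmFit, eBayes with trend, two-sided) on log2(FPKM + 0.1), keeping genes that averaged 0.1 FPKM or more over both strains, with Benjamini-Hochberg adjustment over all genes tested. Fold changes on this scale understate those of low genes. limma was used because the deposited unit is FPKM. The fit was tested on simulated data with known fold changes and the same spread for every gene. This check does not cover genes of wide spread such as Cort and Calb2. Ratios were compared by exact permutation test with scipy 1.17.1. The genes, lists and tests were chosen with earlier results of these data known. Named besides the 10 genes are those of the related lists that were called (at most 4 per list), called markers (at most 3 per list), the 2 nearest profiles of each gene, and, chosen after their values were seen, the neighbours of Cort and 2 hypothalamic markers. No 2 libraries of a strain were alike within sampling noise. Alternatives were other pseudocounts, filters and scalings, all 9 mice in one fit, voom weights, a replicate block, removal of GC trends and leaving out each mouse.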

Additional observations from a re-analysis of the deposited data

Results flagged for a closer look

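Of the related genes, 3 differed between WSB and C3H by a direct test of these strains while none of them was called relative to B6. These were 1 of 18 transcription factors, 1 of 12 genes of Vip, Cck and Lamp5 cells and 1 of 15 peptide processing genes. The other related lists gave no call in this comparison, which called 5.74% of all 20607 genes tested. The 3 calls do not stand apart from that share. The 3 genes were Dlx1, a homeobox factor of interneuron development (log2 fold change 0.48, adjusted p = 0.0309, limma), Cnr1 (0.63, adjusted p = 0.0460, limma) and Cadps2 (0.44, adjusted p = 0.0480, limma). Dlx1 had 7.10, 6.91 and 7.21 FPKM in B6, 6.22, 5.997 and 5.94 in C3H, and 7.69, 9.25 and 8.54 in WSB, so that B6 lay between the other strains without overlap. Cnr1 had 27.3, 20.8 and 15.5 FPKM in B6, 12.9, 15.6 and 12.4 in C3H, and 23.0, 17.4 and 23.2 in WSB, with B6 overlapping both. Cadps2 had 9.35, 9.67 and 9.65 FPKM in B6, 8.03, 8.63 and 7.003 in C3H, and 11.001, 10.1 and 11.03 in WSB. When 1 mouse was left out, Dlx1 was called only without C3H replicate 2 or WSB replicate 1, Cnr1 only without C3H replicate 2 or WSB replicate 2, and Cadps2 only without C3H replicate 2 (limma, adjusted p 0.0278 to 0.169 over the 18 fits).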

How the results depend on the processing

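Over 510 alternatives to the 30 log2 fold changes of the 10 genes, 461 kept their direction and side of the threshold, 16 lost and 14 gained a call, and 19 changed sign. For the 8 other named genes the numbers were 350, 45, 5 and 8 of 408. Among the 10 genes the main fits called only Cort, relative to B6, so all 16 lost calls were of Cort. The number of the 10 genes called in WSB against B6 was 0 with pseudocounts of 1 or 0.01, no filter, rescaling to total reads or the replicate block, 2 with all 9 mice in one fit (1453 of all genes) or GC trends removed (1456), and 3 with voom weights (1541, or 7.43%). In C3H against B6 it was 0 with the block and 2 with voom weights (7.22% of all genes) or all 9 mice (6.58%). In WSB against C3H it was 1 with a filter of 1 FPKM (7.83%) or rescaling to total reads (5.68%) and 2 with voom weights (8.53%). With 2 mice per strain, chosen after seeing the data, no gene of the 10 was called. Leaving out 1 mouse gave 0 to 0, 0 to 3 and 0 to 1 calls of the 10, and 651 to 825, 498 to 2301 and 475 to 2002 over all genes, in place of 1224, 956 and 1182. Both highest values came without C3H replicate 2.

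Over all genes, the replicate block gave 754, 480 and 531 calls, 2 mice per strain 495, 304 and 309, and voom weights 1488 in C3H against B6. Same-numbered mice of different strains correlated at -0.157 to 0.037 in their deviations from strain means, beside -0.150 to 0.196 for other-numbered mice. This gave no sign that the numbers pair the mice but cannot exclude it. With the block Cort was not called, at adjusted p = 0.134 (WSB against B6) and 0.0602 (C3H against B6), and Lgi2 was not called in C3H against B6 (0.0959). With 1 mouse of each number per strain, the block cannot move a fold change.

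Signs changed at these values. With GC trends removed, C3H against B6 gave -0.084 for Sst and 0.0021 for Gad1, and WSB against C3H gave 0.029 for Npy and 0.0014 for Cox6a2. With 2 mice per strain, Calb2 was at -0.20 in WSB against B6, Gad1 at 0.030 in C3H against B6, and Cort at -0.17 and Cox6a2 at 0.066 in WSB against C3H. Over the fits without 1 mouse the range was -0.063 to 0.36 for Gad2 and -0.18 to 0.22 for Cnr1 (WSB against B6), and -0.086 to 0.076 for Gad1 (C3H against B6).
For WSB against C3H it was -0.19 to 0.15 for Npy, -0.10 to 0.14 for Pvalb, -0.76 to 0.048 for Calb2, -0.13 to 0.27 for Cort, -0.24 to 0.050 for Cox6a2 and -0.46 to 0.077 for Sncg. None of these was called, and the cause was not tested. The 61 to 288 reads of Cort per mouse limit its precision.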
